A study of Homo sapiens with 12 samples.

Results

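The cornified envelope and squamous differentiation genes described here are 51 genes of the outer layers of stratified epithelium, picked by name for their known role, with earlier results of these data known, out of 58051 genes in the count tables. All 51 were matched by symbol to 1 Ensembl identifier each. They were followed in RNA-seq of 2 head and neck squamous cell carcinoma (HNSCC) lines, FaDu from the hypopharynx and Cal27 from the tongue. Each line was measured as parental cells, as a derivative grown resistant to afatinib (AfaR), which inhibits the kinases of the ERBB family, and as a derivative grown resistant to erlotinib (ErlR), which inhibits EGFR. The resistant derivatives were raised by stepwise increases of the drug. Per the study's methods, their stocks were typically kept under the drug and cultured without it only for the last day before experiments. Each derivative is a single resistant population, so a change seen in it may belong to that population or to the drug, and these cannot be told apart. Every group had 2 libraries, labelled as biological replicates, and 12 libraries were used in all. Where a pair of values is given for a group, it is the level in replicate 1 and then in replicate 2.

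As a keratinocyte leaves the basal layer it stops dividing and builds a cornified envelope beneath its membrane. Precursor proteins such as involucrin (IVL), the small proline-rich proteins (SPRR), sciellin (SCEL), envoplakin (EVPL) and periplakin (PPL) are joined there by transglutaminases, and filaggrin (FLG) packs the keratin filaments. Kallikrein proteases (KLK) later cut the junctions that hold the dead cells together, under the control of protease inhibitors. The moist linings of mouth and throat, from which these tumors arise, run a form of the same program that keratinizes less, and well differentiated squamous carcinomas keep part of it. Many of the genes lie close together: 15 of the 51 sit in the epidermal differentiation region at 1q21 (GRCh38 chr1:150508062-153567890), and the 7 kallikrein genes sit within chr19:50943303-51065114.

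The libraries held 16334937 to 23399259 counts in genes (median 16584450), beside 3.86 to 5.82% of counts in the added ERCC spike-in RNA. The FaDu parental and AfaR libraries held 20156109 to 23399259 counts and 5.64 to 5.82% spike-in. The FaDu ErlR and all Cal27 libraries held 16334937 to 16689855 counts and 3.86 to 4.6% spike-in. The FaDu ErlR comparisons, the comparison of the parental lines and the erlotinib interaction cross this technical difference. Levels are given as CPM, counts relative to library size, scaled by the trimmed mean of M values (TMM) over all 12 libraries. A gene is said to have risen or fallen where the quasi-likelihood test of edgeR gave an adjusted p under 0.05, corrected over all genes tested, with a change of more than 1 on the log2 scale; changes are given as log2 fold changes ± SE. Statements that the libraries of such a gene do not overlap describe its levels. They are not a further test, since the gene was picked for its change. The squamous identity of the lines was checked on 10 markers (KRT5, KRT14, KRT17, TP63, CDH1, EPCAM, PERP, DSP, JUP and SFN). Their summed level was 4853 to 14601 CPM in the 10 libraries outside Cal27 AfaR, and 1294 to 1442 CPM in the Cal27 AfaR libraries.

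Promoter sequence of 6 of the genes is shown because they are among the genes that changed in the resistant cells, as described below. Each is 150 bases of the RefSeq GRCh38.p14 promoter table, 5′ to 3′ on the gene's strand, and it ends before the first base that the count files' annotation places in the gene. Capitals mark matches on either strand to any of 4 motifs. A form of the AP-1 site with any middle base was searched as TGANTCA. The letters of the TATA box were searched as TATAAA, at any position. A form of the C/EBP site was searched as TTGCNNAA. The grainyhead (GRHL) site was searched as AACCNGTT.
S100A9, chr1:153357704-153357853, plus strand: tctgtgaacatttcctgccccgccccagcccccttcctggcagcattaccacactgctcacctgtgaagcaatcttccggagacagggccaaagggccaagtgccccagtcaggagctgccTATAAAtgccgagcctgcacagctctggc
SPRR1B, chr1:153031052-153031201, plus strand: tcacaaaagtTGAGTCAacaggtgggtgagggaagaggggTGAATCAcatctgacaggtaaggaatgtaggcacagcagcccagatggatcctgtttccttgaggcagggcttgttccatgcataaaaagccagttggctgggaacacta
SCEL, chr13:77535524-77535673, plus strand: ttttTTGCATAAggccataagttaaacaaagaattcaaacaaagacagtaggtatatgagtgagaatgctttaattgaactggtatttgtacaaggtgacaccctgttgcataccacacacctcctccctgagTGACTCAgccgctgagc
EMP1, chr12:13196566-13196715, plus strand: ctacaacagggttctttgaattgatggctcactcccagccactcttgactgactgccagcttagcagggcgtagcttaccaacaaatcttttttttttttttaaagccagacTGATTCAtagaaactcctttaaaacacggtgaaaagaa
ECM1, chr1:150507912-150508061, plus strand: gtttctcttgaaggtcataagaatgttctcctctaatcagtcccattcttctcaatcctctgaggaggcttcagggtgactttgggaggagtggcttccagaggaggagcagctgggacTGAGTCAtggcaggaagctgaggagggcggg
FLG, chr1:152325240-152325389, minus strand: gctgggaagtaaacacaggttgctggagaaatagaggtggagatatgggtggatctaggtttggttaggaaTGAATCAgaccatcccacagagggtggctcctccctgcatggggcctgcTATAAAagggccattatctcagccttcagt

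Over whole promoter windows, 250 bases before to 50 after each RefSeq start, 39 of the 51 genes had an entry. An AP-1 match was found for 15 of these 39 genes (38.5%), beside 9.37% of 27305 genes. The letters TATAAA were found for 15 (38.5%, beside 14% of all genes), the C/EBP form for 9 (23.1%, beside 12.7%), and the GRHL site for 1 (2.56%, beside 2.14%). Most of the genes with TATAAA had a match between -30 and -28, among them IVL (-30), S100A9 (-29) and S100A7 (-28). The matches of S100A12 (-8), CEACAM6 (-139) and TMPRSS11E (-175 and -248) lay elsewhere. The AP-1 matches of SCEL, EMP1, FLG and ECM1 that are shown in capitals start at -49, -48, -79 and -78 from the RefSeq start, and those of SPRR1B at -141 and -111. A match describes these letters only. Genes with a match did not move alike, as described below. SCEL and EMP1 fell in FaDu AfaR, and S100A2, with a match at nearly the same distance (-52), was 1.75-fold lower there but not called. In Cal27 AfaR FLG and ECM1 rose, SCEL, S100A2 and SPRR1B fell, and EMP1 was 1.69-fold lower but not called. The part of the matches in these changes was not tested.

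Most of the late envelope genes were barely expressed in any group. Of the 51 genes, 19 stayed under 1 CPM on average in every group, among them IVL (at most 0.456 CPM, in FaDu ErlR), SPRR1A, SPRR2A, SPRR2D, SPRR2E, SPRR3, KRTDAP, SBSN and the lipoxygenase genes ALOX12B and ALOX15B. CRNN and TGM3 had no count in any library, and MAL, SPRR3, ALOX15B and CDSN had at most 1 count in any library. Counts of the SPRR2 genes and of KLK8 are uncertain, since 16.3 to 35.3% of their 75-base stretches also occur in other annotated transcripts, and so is the absence of counts for TGM3, which shares 96.5% of them. CDSN (93.8%), CALML3 (21.5%) and KLK6 (20.3%) share exon bases with a gene on the opposite strand, and the strand setting of the counting is not given in the sources used here, so their values may hold reads of that gene. Parental Cal27 cells held the most genes at 1 CPM or more, 25, followed by 21 in the ErlR and 15 in the AfaR cells of that line. The FaDu groups differed less, with 19 such genes in parental, 20 in ErlR and 18 in AfaR cells.

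Among the genes that were well expressed, the order differed between the lines. Per kilobase of exon, S100A2, a calcium-binding protein of basal keratinocytes, stood first in every group except Cal27 parental: 565 CPM per kb in parental, 1098 in ErlR and 326 in AfaR cells of FaDu, and 964 in ErlR against 64.5 in AfaR cells of Cal27. In Cal27 parental cells S100A9 averaged 329 CPM per kb and S100A2 228, and the libraries of the 2 genes overlapped. Behind S100A2 in FaDu parental cells came KLK6 (175 CPM per kb), KLK5 (97.7) and the cysteine protease inhibitor CSTB (68.6). The FaDu parental libraries thus carried a protease-rich part of the set and the Cal27 parental libraries an S100A8 and S100A9-rich part, which the heat map of levels shows by library.

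**Figure D1:**
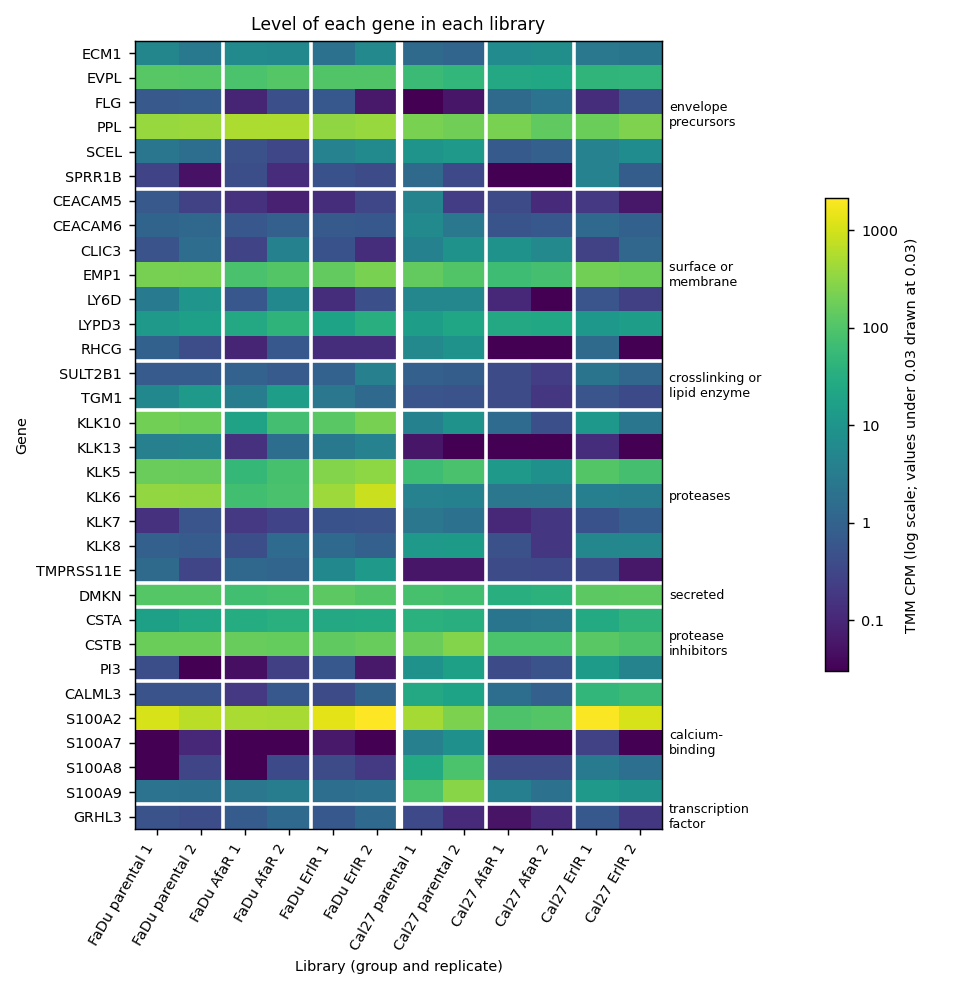
TMM-scaled CPM (color, log scale) of the 32 genes that reached an average of 1 CPM in at least 1 group, with genes in rows ordered by role and the 12 libraries in columns. S100A8, S100A9, CALML3, PI3 and S100A7 are bright in the Cal27 parental columns and dark in the FaDu columns, KLK6, KLK10 and KLK13 show the reverse, and among the Cal27 columns those of AfaR are the darkest over most rows.

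The 2 parental lines were compared first, since every resistant model starts from one of them. In Cal27 parental cells 11 of the 35 genes tested were higher than in FaDu parental cells, where 19.1% of all genes tested were higher, and 10 were lower, where 12.5% of all genes were lower. Calcium-binding proteins of activated keratinocytes led the higher genes. S100A8, a subunit of the antimicrobial dimer calprotectin, was at 27.8 and 89.8 CPM in Cal27 parental and at 0 and 0.312 CPM in FaDu parental (8.54 ± 0.84, adjusted p = 3.74e-06). Its partner S100A9 was at 91.1 and 289 CPM against 2.13 and 1.97 CPM (6.53 ± 0.51, adjusted p = 6.69e-07). Both Cal27 libraries lay far above both FaDu libraries for each gene, although the Cal27 replicates themselves differed, with replicate 2 the higher.

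S100A7 (psoriasin), another antimicrobial S100 protein, was at 3.84 and 8.04 CPM in Cal27 parental cells and at 0 and 0.104 CPM in FaDu parental cells, a ratio of 118 from 204 against 2 counts (95% counting interval 32.4 to 984). PI3 (elafin), an elastase inhibitor that is bound into the envelope, was at 9.14 and 17.4 CPM against 0.437 and 0 CPM (5.84 ± 0.88, adjusted p = 0.000122). CALML3, a calmodulin-like protein of stratified epithelium, was at 25.2 and 19.2 CPM against 0.534 and 0.519 CPM (5.38 ± 0.41, adjusted p = 5.3e-07). KLK8, a protease of the upper layers, was at 12.7 and 13.1 CPM against 0.922 and 0.779 CPM (3.91 ± 0.46, adjusted p = 1.75e-05). None of these 4 genes overlapped between the lines, but nor did SPRR1B, CSTA and SULT2B1, which were not called. RHCG, KLK7, CLIC3, SCEL and CEACAM6 were the other genes higher in Cal27, by 1.87 to 3.42 on the log2 scale.

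Of the 10 genes that were lower in Cal27 and so higher in FaDu parental cells, 5 were proteases. KLK6 was at 353 and 338 CPM in FaDu parental and at 4.25 and 4.14 CPM in Cal27 parental cells (-6.36 ± 0.32, adjusted p = 1.71e-08), and KLK10 at 200 and 171 CPM against 4.07 and 9.15 CPM (-4.81 ± 0.73, adjusted p = 0.000123). KLK13 gave 167 counts in FaDu parental and 1 count in Cal27 parental libraries, a ratio of 144 (95% counting interval 25.5 to 5716). The neighbouring KLK7 and KLK8 were higher in Cal27, so genes of 1 kallikrein cluster differed between the lines in both directions. TGM1, the transglutaminase that joins envelope proteins, was at 5.48 and 12.5 CPM in FaDu parental and 0.582 and 0.524 CPM in Cal27 parental cells (-4.00 ± 0.75, adjusted p = 0.000625). ECM1, a secreted protein of the dermal and epithelial matrix, was at 5.05 and 2.75 CPM against 1.40 and 1.17 CPM (-1.60 ± 0.45, adjusted p = 0.0089), and S100A2 at 1092 and 678 CPM against 475 and 240 CPM (-1.31 ± 0.35, adjusted p = 0.00658). The groups did not overlap for any of these 6 genes, but nor did they for DMKN, EMP1, PPL and GRHL3, which were not called. The lack of overlap thus adds no support to the calls. KLK5, EVPL, FLG and TMPRSS11E were also lower in Cal27.

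Scaling on the spike-in RNA in place of TMM raised the median of all genes in the parental comparison by 0.58 on the log2 scale; 15 genes were then higher and 7 lower, and KLK5 (-0.50, adjusted p = 0.0974), S100A2 (-0.74, adjusted p = 0.0498) and EVPL (-0.45, adjusted p = 0.0225) were no longer past both limits. Leaving out FaDu parental replicate 1 or Cal27 parental replicate 2 reduced the lower genes to 6. The calls of ECM1 (-1.11 and -1.48), S100A2 (-0.93 and -0.90), TMPRSS11E (adjusted p = 0.143 and 0.051), EVPL (-0.99 and -0.87) and CLIC3 (1.98 and 1.93) were lost without the first and without the second of these libraries. Without Cal27 parental replicate 1 those of KLK5 (-0.89), FLG (adjusted p = 0.0819) and CEACAM6 (1.18) were lost, and without FaDu parental replicate 2 that of RHCG (2.94). Other sizes moved by over 1.5 times while the call held. Without Cal27 parental replicate 2 the changes were 5.46 for S100A9, 7.46 for S100A8 and -5.51 for KLK10, and without Cal27 parental replicate 1 they were 7.13 for S100A9 and 9.15 for S100A8. Without FaDu parental replicate 1 they were 7.52 for S100A8, 4.15 for RHCG and 1.93 for KLK7, and without FaDu parental replicate 2 they were 4.89 for PI3, 3.56 for CLIC3, 3.85 for KLK7 and -3.31 for TGM1. The remaining FaDu library was at 0 for PI3 without replicate 1 and for S100A8 without replicate 2, and S100A7, KLK13, FLG and TMPRSS11E had only 1 or 2 counts in the lower line, so no size is given there.

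**Figure D2:**
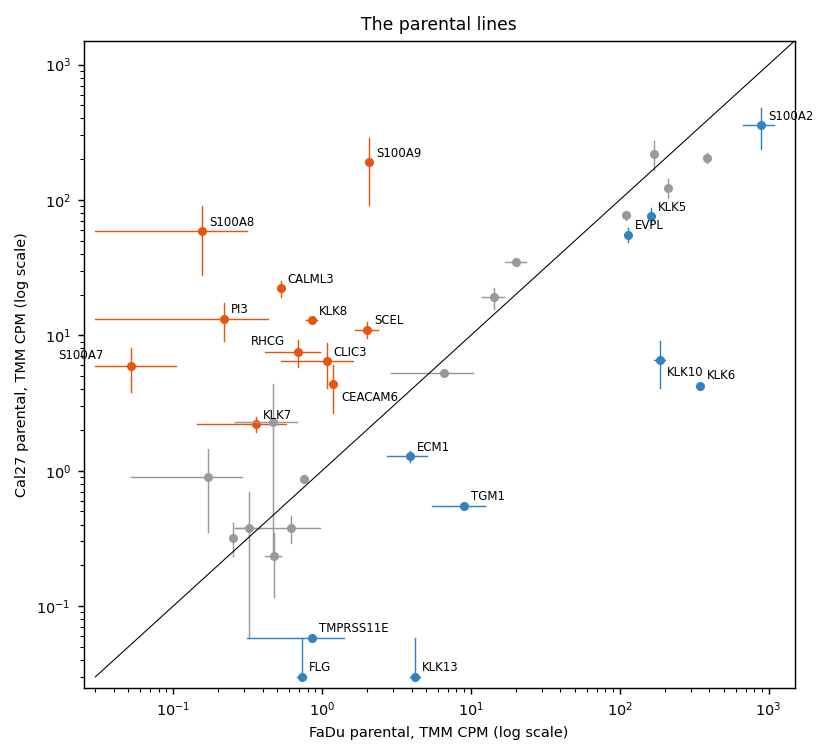
Level of the 35 tested genes in FaDu parental cells (horizontal) and Cal27 parental cells (vertical), in TMM-scaled CPM on log axes. Points are means of 2 libraries, lines span both libraries, values under 0.03 are drawn at 0.03, the diagonal marks equal levels, orange and blue mark genes called higher and lower in Cal27, and grey marks genes not called; S100A8, S100A7 and S100A9 stand well above the diagonal and KLK6, KLK10 and KLK13 well below it.

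Afatinib resistance in Cal27 went with a fall of most of the genes that could be tested. In Cal27 AfaR 19 of the 27 genes tested fell against Cal27 parental cells, where 8.06% of all 15269 genes tested fell, and 2 rose, where 11.5% of all genes rose. The median change of the 27 genes was -2.87 on the log2 scale, beside 0.00 for all genes. RHCG, S100A7 and SPRR1B had no count in AfaR cells and passed the filter on low counts through the other Cal27 groups. The count and the median thus rest partly on genes let in where they were high. Setting the genes at 0 to their bounds left the median at -2.87 but could not move it, since these bounds lay beyond it. Fewer genes fell when 10 counts were required in every library, as given in the last section. By role, all 5 calcium-binding proteins tested fell, as did all 3 protease inhibitors, 4 of 5 proteases, 3 of 6 surface or membrane proteins and 3 of 6 envelope precursors. In 19 of the 51 genes neither Cal27 AfaR library had a count, compared with 4 in Cal27 parental cells.

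The S100 genes that set Cal27 parental cells apart were nearly lost. S100A9 fell from 91.1 and 289 CPM to 3.67 and 2.03 CPM (-6.05 ± 0.57, adjusted p = 6.26e-05), and S100A8 from 27.8 and 89.8 CPM to 0.378 and 0.406 CPM (-7.21 ± 0.67, adjusted p = 5.9e-05). Both were higher in parental replicate 2, and the size of the fall depended on it: it was -4.98 for S100A9 and -6.12 for S100A8 without parental replicate 2, and -6.65 and -7.81 without parental replicate 1, all past the threshold. S100A7, at 3.84 and 8.04 CPM in parental cells, had no count in either AfaR library, which makes it at least 70.9-fold lower against a floor of 3 counts over the group. The levels in AfaR cells were near those of FaDu cells, where S100A9 stood at 1.66 to 3.45 CPM in the 6 libraries.

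Other genes of the upper layers fell too. RHCG, an ammonium transporter of mucosal squamous epithelium, went from 5.82 and 9.27 CPM to no count in either AfaR library, at least 90.0-fold lower against the same floor. LY6D, a lipid-anchored surface protein of stratified epithelium, gave 182 counts in parental cells (5.30 and 5.30 CPM) and 2 counts in AfaR cells (0.108 and 0 CPM), a ratio of 94.8 (95% counting interval 25.9 to 789). KLK8 fell from 12.7 and 13.1 CPM to 0.485 and 0.174 CPM (-5.23 ± 0.38, adjusted p = 1.49e-05). For all of these the AfaR libraries lay below both parental libraries. SPRR1B, an envelope precursor, was low already in parental cells (1.45 and 0.35 CPM) and without a count in AfaR cells, at least 10.8-fold lower.

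The remaining falls were of genes at higher levels. CSTA (cystatin A), a protease inhibitor that is itself part of the envelope, fell from 36.8 and 32.9 CPM to 2.32 and 2.61 CPM (-3.82 ± 0.24, adjusted p = 7.88e-06). The calmodulin-like CALML3 fell by 4.07, PI3 by 4.86, the kallikreins KLK7, KLK5 and KLK10 by 3.91, 2.87 and 2.72, SCEL by 3.75, CEACAM6 by 2.87, S100A2 by 1.82 and CSTB, EVPL and the secreted protein DMKN by 1.29, 1.15 and 1.09, all on the log2 scale. The plakin PPL was at 221 and 188 CPM in parental and 223 and 141 CPM in AfaR cells (-0.16 ± 0.23, adjusted p = 0.605), so its groups overlapped while its partner EVPL fell. LYPD3, a surface protein of suprabasal cells, was at 15.8 and 22.4 against 25.8 and 22.9 CPM (adjusted p = 0.223).

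ECM1 and FLG, whose promoters are shown above, were the 2 genes that rose in Cal27 AfaR. ECM1 rose from 1.40 and 1.17 CPM to 6.69 and 7.42 CPM (2.46 ± 0.31, adjusted p = 0.000342). FLG rose from 1 count over both parental libraries (0 and 0.0583 CPM) to 64 counts (1.46 and 2.15 CPM), a ratio of 61.4 (95% counting interval 10.6 to 2463). At about 2 CPM over an exon length of 12747 bases this is a low level, and 5.52% of the FLG exon bases also lie in the antisense gene FLG-AS1.

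The markers of other cell types moved in the same libraries. Of the 10 squamous markers 8 fell in Cal27 AfaR, and of 11 fibroblast markers, 7 of them tested, 4 rose (VIM, COL1A1, LUM and PDGFRB); VIM, a filament protein of mesenchymal cells, was at 23 and 21.8 CPM in parental and 1122 and 1268 CPM in AfaR cells. The summed fibroblast markers were 56.1 to 67.4 CPM in the parental libraries and 1453 to 1587 CPM in the AfaR libraries, with none of the 11 without a count. Immune markers, which matter because S100A8 and S100A9 are also abundant in neutrophils and monocytes, summed to 14.4 to 19.2 CPM in parental and 13.7 to 14.7 CPM in AfaR cells, with 1 and 2 of 7 markers without a count. The part of these markers in the falls was not tested. In bulk RNA, fewer cells that express a gene and less RNA of it per cell cannot be told apart.

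With 1 library left out at a time, 16 to 19 genes were called lower in Cal27 AfaR, not always the same ones. The calls of SPRR1B (adjusted p = 0.0891, 0.128 and 0.106 without parental replicate 1, AfaR replicate 1 and AfaR replicate 2) and KLK10 (-2.02, -3.81 and -2.11 without parental replicate 2, AfaR replicate 1 and AfaR replicate 2) were lost, as were EVPL (-0.98) and DMKN (-0.97) without parental replicate 1 and CSTB (-0.89) without parental replicate 2. Sizes that moved by over 1.5 times with the call held included CEACAM6 (-2.17 without parental replicate 1); FLG, S100A7 and LY6D, with 0 to 2 counts in one of the groups, and KLK8, with 3 counts in AfaR replicate 2, also moved and give no size when a library is left out.

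**Figure D3:**
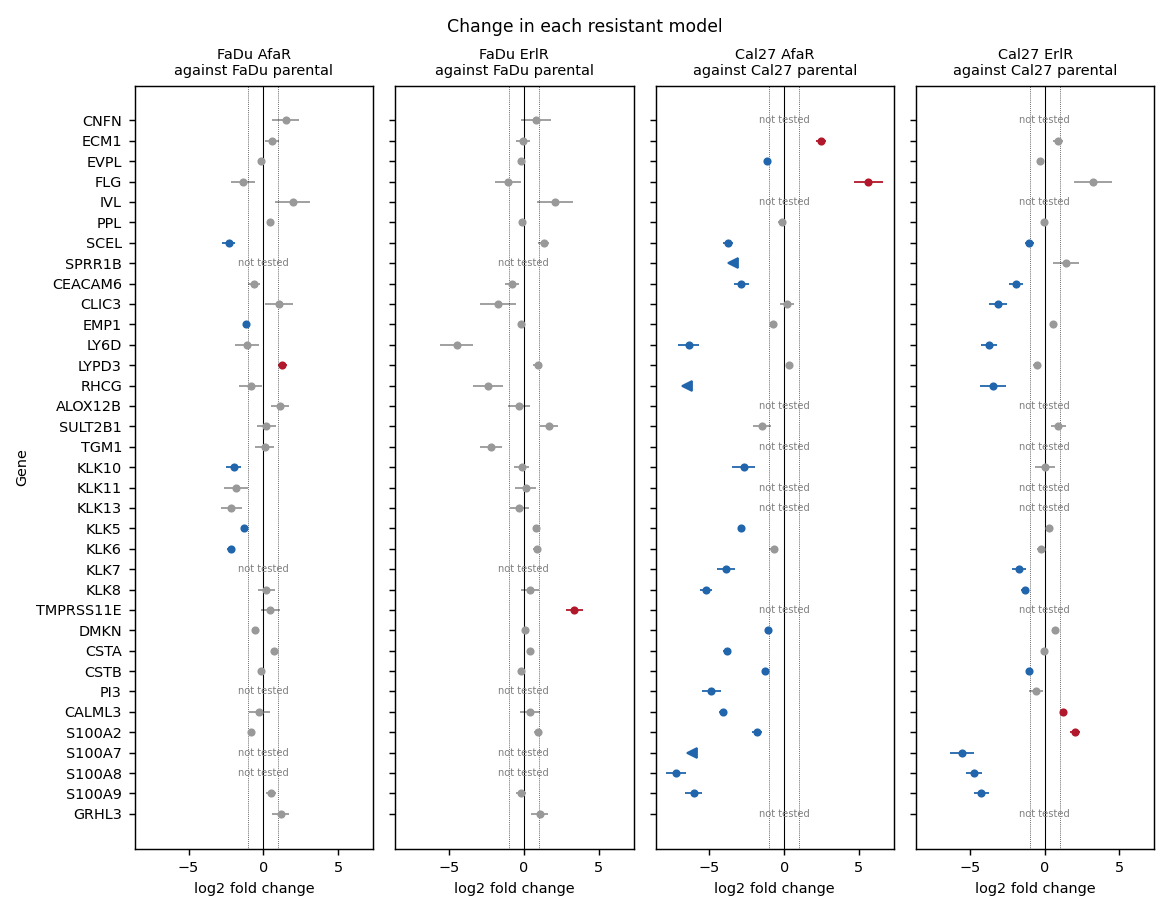
Log2 fold change (horizontal) of each gene tested in at least 1 resistant model, 1 panel per model, as estimate ± SE. Blue and red mark genes that fell and rose, grey marks genes not called, dotted lines mark a change of 1, and left-pointing triangles mark the least fall where neither resistant library had a count; the Cal27 AfaR panel lies mostly to the left, while most points in the FaDu panels are grey.

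Erlotinib resistance in Cal27 split the set. In Cal27 ErlR 11 of 27 genes fell against parental cells, where 9.92% of all genes fell, and 2 rose, where 3.56% of all genes rose; the median change was -0.30, beside -0.03 for all genes. The inflammatory S100 genes fell here too. S100A9 went from 91.1 and 289 CPM to 11.9 and 8.73 CPM (-4.23 ± 0.50, adjusted p = 0.000597), S100A8 from 27.8 and 89.8 CPM to 2.87 and 1.77 CPM (-4.69 ± 0.54, adjusted p = 0.000506), and S100A7 from 3.84 and 8.04 CPM to 0.255 and 0 CPM (-5.51 ± 0.81, adjusted p = 0.00212). All ErlR libraries lay below all parental libraries for these genes. Of the surface proteins, LY6D fell from 5.30 and 5.30 CPM to 0.575 and 0.244 CPM (-3.70 ± 0.53, adjusted p = 0.00145) and RHCG from 5.82 and 9.27 CPM to 1.40 and 0 CPM (-3.46 ± 0.86, adjusted p = 0.0196). CLIC3, an intracellular chloride channel protein, fell from 4.07 and 8.80 CPM to 0.255 and 1.22 CPM (-3.12 ± 0.60, adjusted p = 0.0053).

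The 2 genes that rose in Cal27 ErlR were calcium-binding proteins that had fallen in Cal27 AfaR. S100A2 rose from 475 and 240 CPM to 1957 and 1064 CPM (2.06 ± 0.34, adjusted p = 0.00266), and CALML3 from 25.2 and 19.2 CPM to 47.9 and 59.7 CPM (1.25 ± 0.22, adjusted p = 0.00309). Neither gene overlapped between the groups. So the 5 calcium-binding genes tested moved in both directions in this model, S100A7, S100A8 and S100A9 down and S100A2 and CALML3 up. CSTA was at 28.2 and 42.3 CPM (-0.01 ± 0.20), KLK5 at 109 and 78.8 CPM (0.28 ± 0.22) and PI3 at 13.9 and 4.46 CPM (-0.56 ± 0.47), each overlapping the parental libraries; these 3 had fallen in Cal27 AfaR.

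Smaller falls in Cal27 ErlR were those of CEACAM6 (1.34 and 0.977 CPM, -1.92), KLK7 (-1.71), KLK8 (5.23 and 5.37 CPM, -1.30), SCEL (-1.03) and CSTB (-1.02). With 1 library left out, 8 to 10 genes fell. The losses were SCEL (-0.81 and -0.73 without parental replicate 2 and ErlR replicate 1), CEACAM6 (-1.22 and -1.68 without parental replicate 1 and ErlR replicate 2), KLK7 (-1.49, -1.87 and -1.38 without parental replicate 1, parental replicate 2 and ErlR replicate 1), CSTB (-0.61 and -0.81 without parental replicate 2 and ErlR replicate 2) and RHCG (-3.06, adjusted p = 0.0515, without parental replicate 2). Sizes that moved by over 1.5 times were S100A9 (-3.15 and -4.82 without parental replicate 2 and 1), S100A8 (-3.59 and -5.28 without the same), S100A7 (-4.86 and -4.50 without parental replicate 2 and ErlR replicate 2), S100A2 (2.65 without parental replicate 1), LY6D (-4.42 without ErlR replicate 1), CLIC3 (-2.45, -2.41 and -4.61 without parental replicate 2, ErlR replicate 1 and ErlR replicate 2) and RHCG (-2.41 without ErlR replicate 2). Without ErlR replicate 1, the other ErlR library was at 0 for S100A7 and RHCG and gave no size. DESeq2 gave RHCG an adjusted p of 0.356 and KLK7 one of 0.095. The summed squamous markers were 4853 to 5961 CPM in parental and 5717 to 5833 CPM in ErlR libraries, with 2 of 10 lower. Of 7 fibroblast markers tested 4 fell, their sum going from 56.1 to 67.4 CPM in parental to 31.3 to 34.3 CPM in ErlR libraries, and the 5 endothelial markers summed to 31.9 to 33.2 CPM against 2.55 to 6.17 CPM. The part of these markers in the result was not tested.

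In FaDu AfaR 6 genes were called, 3 of them proteases. Of 30 genes tested, 5 fell against FaDu parental cells, where 0.954% of all 15092 genes fell, and 1 rose, where 6.48% of all genes rose. The median change of the 30 genes was -0.16, beside 0.00 for all genes. KLK6 fell from 353 and 338 CPM to 71.1 and 87.0 CPM (-2.15 ± 0.28, adjusted p = 0.00322), KLK10 from 200 and 171 CPM to 18.7 and 76.6 CPM (-1.98 ± 0.51, adjusted p = 0.0302) and KLK5 from 164 and 159 CPM to 50.6 and 84.2 CPM (-1.28 ± 0.20, adjusted p = 0.00638). These 3 were the most abundant kallikreins in FaDu, and in each the AfaR libraries lay below the parental libraries.

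SCEL, an envelope precursor, was at 2.38 and 1.66 CPM in FaDu parental and 0.485 and 0.329 CPM in FaDu AfaR cells (-2.33 ± 0.43, adjusted p = 0.0104). EMP1, an epithelial membrane protein, fell from 213 and 208 CPM to 87.1 and 106 CPM (-1.15 ± 0.18, adjusted p = 0.00667). LYPD3 was the gene that rose, from 11.8 and 16.6 CPM to 25.9 and 42.8 CPM (1.25 ± 0.31, adjusted p = 0.0252). KLK13, a further kallikrein, was at 3.88 and 4.52 against 0.145 and 1.73 CPM but did not pass (-2.14 ± 0.67, adjusted p = 0.0566). The inflammatory S100 genes that fell in Cal27 were low in FaDu throughout: S100A9 was at 2.13 and 1.97 CPM in parental and 2.52 and 3.45 CPM in AfaR cells (adjusted p = 0.28), and S100A7, S100A8 and PI3 were below the filter on low counts.

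Single libraries decided several of the FaDu AfaR calls. The number that fell was 3 without FaDu parental replicate 1, where SCEL (-2.05, adjusted p = 0.0783) and KLK10 (-1.86, adjusted p = 0.133) were lost; KLK10 was also lost without parental replicate 2 (-2.09) and ranged from -3.32 without AfaR replicate 2 to -1.30 without AfaR replicate 1, SCEL was lost without AfaR replicate 2 (-2.06) and KLK5 without AfaR replicate 1 (-0.97). LYPD3 was lost without parental replicate 1 (1.02), parental replicate 2 (1.51) and AfaR replicate 2 (0.85). With all libraries kept, DESeq2 gave KLK10 an adjusted p of 0.0946. Spike-in scaling gave EMP1 a change of -0.96, under the limit on size. With that scaling the median change of the genes tested was 0.02, beside 0.18 for all genes.

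In FaDu ErlR the set showed little change that passed the test. Of 30 genes 1 rose, where 1.54% of all genes rose, and 0 fell, where 0.504% of all genes fell by the edgeR test. TMPRSS11E, a membrane-bound serine protease of squamous epithelium, rose from 1.41 and 0.312 CPM to 5.62 and 12.8 CPM (3.38 ± 0.59, adjusted p = 0.0216), with no overlap of the groups. This call was lost without FaDu parental replicate 2 (2.69, adjusted p = 0.0889) and without FaDu ErlR replicate 2 (2.68, adjusted p = 0.107), the change of TMPRSS11E was 4.84 without FaDu parental replicate 1, and leaving out ErlR replicate 1 gave 4 genes that rose. At an unadjusted p under 0.05, 3 genes were higher and 3 lower, and DESeq2 called 2 lower. Scaling on the spike-in RNA moved the median of all genes by 0.488 and gave 7 higher and 2 lower genes.

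Of the 5 genes that fell in FaDu AfaR, 3 had higher and 2 had lower averages in FaDu ErlR than in parental cells, none of them past the limits. SCEL was at 4.22 and 6.01 CPM in FaDu ErlR (1.32 ± 0.35, adjusted p = 0.0692), KLK6 at 419 and 871 CPM (0.89 ± 0.27, adjusted p = 0.098) and KLK5 at 267 and 319 CPM (0.85 ± 0.20, adjusted p = 0.0496, under the limit on size). KLK10, at 121 and 219 CPM (-0.14 ± 0.49, adjusted p = 0.909), and EMP1, at 144 and 221 CPM (-0.22 ± 0.18, adjusted p = 0.546), had the lower averages and overlapped the parental libraries. Larger differences that did not pass were those of LY6D, at 2.91 and 10.3 CPM in parental and 0.128 and 0.457 CPM in ErlR cells (-4.49 ± 1.12, adjusted p = 0.0578), RHCG (-2.39 ± 0.99, adjusted p = 0.202) and TGM1 (-2.20 ± 0.72, adjusted p = 0.119). S100A2, not called in FaDu AfaR, was at 1317 and 2125 CPM (0.95 ± 0.25, adjusted p = 0.064).

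**Figure D4:**
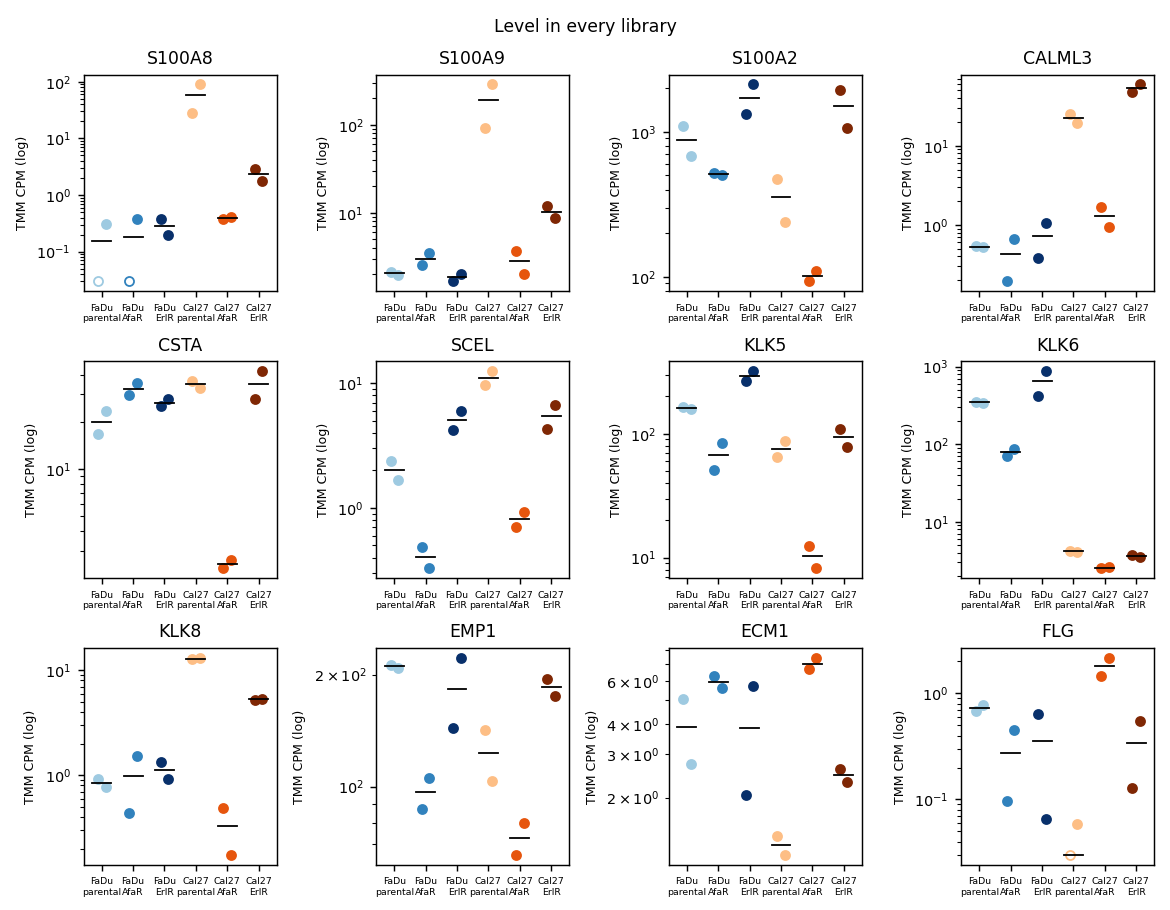
TMM-scaled CPM (log axis, a different range in each panel) of 12 genes in every library, with filled points for the 2 libraries of a group, open points at 0.03 for libraries without a count, and bars at the group mean. S100A8 and S100A9 are high in Cal27 parental cells alone, SCEL, KLK5 and EMP1 are lowest in the AfaR group of each line, and S100A2 is highest in the ErlR groups.

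The 2 resistant states of each line were then set directly against each other, and the genes called were mostly lower in AfaR. In FaDu AfaR 6 of 30 genes were lower than in FaDu ErlR, where 1.50% of all genes were lower, and 0 were higher, where 4.45% of all genes were higher by the edgeR test. The 30 genes as a whole were evenly split, 15 with a positive and 15 with a negative value and a median of -0.06. The 6 were SCEL (-3.65 ± 0.42, adjusted p = 0.00222), KLK6 (-3.03 ± 0.29, adjusted p = 0.001), TMPRSS11E (-2.94 ± 0.56, adjusted p = 0.0112), KLK5 (-2.13 ± 0.21, adjusted p = 0.00106), KLK10 (-1.84 ± 0.51, adjusted p = 0.0402) and S100A2 (-1.76 ± 0.25, adjusted p = 0.00424). At an unadjusted p under 0.05, 3 genes were higher, and DESeq2 called 1 higher. Without AfaR replicate 1, 3 genes were higher. The KLK10 call was lost with DESeq2 (adjusted p = 0.211) and in edgeR with only the 4 libraries compared (adjusted p = 0.0627) or all 12 libraries (adjusted p = 0.0654). TMPRSS11E was lost without AfaR replicate 2 (-2.86) or ErlR replicate 2 (-2.23), and KLK10 without ErlR replicate 2 (-1.36). KLK10 was -1.16 and -3.19 without AfaR replicate 1 and 2, and KLK6 -2.42 without ErlR replicate 2.

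In Cal27 AfaR 17 of 27 genes were lower than in Cal27 ErlR, where 8.86% of all genes were lower, and 3 were higher, where 18.2% of all genes were higher. S100A2, the most abundant of the set in ErlR cells per length, was at 93.1 and 109 CPM in AfaR and 1957 and 1064 CPM in ErlR cells (-3.87 ± 0.37, adjusted p = 4.64e-05). CALML3 was at 1.67 and 0.928 against 47.9 and 59.7 CPM (-5.33 ± 0.28, adjusted p = 2.23e-06), CSTA at 2.32 and 2.61 against 28.2 and 42.3 CPM (-3.81 ± 0.24, adjusted p = 5.82e-06) and KLK5 at 12.5 and 8.23 against 109 and 78.8 CPM (-3.15 ± 0.25, adjusted p = 1.75e-05). SCEL (-2.72 ± 0.36) and EMP1 (-1.32 ± 0.17) were lower as well; in FaDu the same contrast gave -3.65 for SCEL and -0.93 for EMP1, the latter under the limit on size. CLIC3 (3.31 ± 0.60), FLG (2.40 ± 0.68) and ECM1 (1.54 ± 0.29) were the 3 that were higher in AfaR. The lower genes numbered 10 without Cal27 AfaR replicate 2 and 11 without Cal27 ErlR replicate 1, with S100A8 (-2.57 and -2.14), S100A9 (-1.46 and -1.58), LY6D (adjusted p = 0.156 and 0.21), KLK10 (-2.19 and -1.23) and SULT2B1 (-2.12 and -1.95) lost in both. FLG was lost in both as well (2.10 and 1.72) and without AfaR replicate 1 (2.65), CLIC3 was 2.60 and 4.80 without ErlR replicate 1 and 2, and KLK7, RHCG, S100A8 and S100A9 were also lost without AfaR replicate 1.

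Across the 4 resistant models, each with its own line as control, 22 genes were tested in all 4 and 16 in none. SCEL fell in 3 models, FaDu AfaR and both Cal27 models, and 25 of the 51 genes were called in no model. S100A2 and CALML3 were the 2 genes called in both directions. The 2 models of a line share their parental libraries, so calls within a line do not count as separate observations. Besides SCEL, KLK5 and KLK10 fell in both AfaR models: the KLK5 change was -1.28 in FaDu and -2.87 in Cal27, and that of KLK10 -1.98 and -2.72. The FaDu calls of these genes and the Cal27 call of KLK10 were each lost in some fits without 1 library.

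The difference between the lines was then tested as an interaction over all 12 libraries. The afatinib effect was higher in FaDu than in Cal27 for 12 of 35 genes, where 7.57% of all genes were higher, and lower for 3, where 4.76% were lower. S100A9 (6.59 ± 0.72, adjusted p = 7.21e-05), CSTA (4.52 ± 0.32, adjusted p = 2.97e-06) and KLK8 (5.47 ± 0.74, adjusted p = 0.000338) had effects in Cal27 that went further down, by more than the spread between libraries, and these calls held with any 1 library left out. S100A9 and KLK8 averaged 2.05 and 0.850 CPM in FaDu parental cells, against 190 and 12.9 CPM in Cal27 parental cells. They had less room to fall in FaDu, and the part of the starting level in their difference was not tested. CSTA was at 16.8 and 23.4 CPM in FaDu parental and 29.9 and 35.5 CPM in FaDu AfaR cells, while it fell in Cal27. KLK6 went the other way, with the larger fall in FaDu (-1.42 ± 0.43, adjusted p = 0.0378), as did FLG (adjusted p = 0.00689, from 1 count in Cal27 parental cells) and ECM1 (-1.86 ± 0.59, adjusted p = 0.0466), which rose in Cal27. The higher genes numbered 5 without FaDu AfaR replicate 2 and 7 without Cal27 AfaR replicate 2, and the lower genes 1 to 2 with any 1 library left out.

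For erlotinib the effect was higher in FaDu than in Cal27 for 4 of 35 genes, where 7.51% of all genes were higher, and lower for 0, where 3.36% of all genes were lower by the edgeR test. The 4 were S100A8 (5.58 ± 1.74, adjusted p = 0.0424), S100A9 (4.05 ± 0.77, adjusted p = 0.00419), SCEL (2.34 ± 0.46, adjusted p = 0.00491) and LYPD3 (1.44 ± 0.43, adjusted p = 0.0363). S100A8 and S100A9 averaged only 0.156 and 2.05 CPM in FaDu parental cells and had less room to fall there. The part of this in the erlotinib difference was not tested. At an unadjusted p under 0.05, 7 genes were higher and 2 lower. Without FaDu parental replicate 1, FaDu ErlR replicate 2 or Cal27 parental replicate 2 only 2 remained higher, S100A8 and LYPD3 being lost in each of these fits; spike-in scaling gave 9 higher.

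Other genes of the same program were counted from lists that the 51 genes do not include. Of 54 further cornification and barrier genes, 15 were tested in each line; in Cal27, 9 fell and 1 rose with afatinib resistance and 5 fell and 1 rose with erlotinib resistance, and in FaDu 2 rose with the former and 4 rose and 1 fell with the latter. The shares of all genes given above for each model (in Cal27, 8.06% and 9.92% lower) apply to these lists too. In Cal27 AfaR CERS3, a ceramide synthase of the skin barrier, went from 2.33 and 1.63 CPM to no count, while S100A7A (-6.10), which shares some sequence with S100A7, the gap junction gene GJB6 (-5.23) and the protease inhibitor SERPINB2 (-4.83) also fell. ELOVL4, which elongates barrier fatty acids, rose in all 4 models by 1.01 to 1.55 on the log2 scale, the parental libraries being shared within each line.

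The 26 regulators of squamous differentiation, of which 24 were tested, were called more often lower than higher in Cal27 AfaR: 15 fell, where 8.06% of all genes fell, and 2 rose, where 11.5% rose. TP63, the master regulator of stratified epithelium, fell from 231 and 223 CPM to 26.3 and 16.4 CPM (-3.41 ± 0.21, adjusted p = 7.71e-06). OVOL1 (-4.21), NOTCH3 (-4.28), GRHL1 (-4.01) and ZNF750 (-4.00) fell further, and MAF (2.75), which acts in late keratinocyte differentiation, was among those that rose. In Cal27 ErlR 5 regulators fell and 1 rose, and TP63 was at 368 and 407 CPM. In FaDu AfaR KLF5 fell from 117 and 104 CPM to 39.4 and 41.9 CPM (-1.46 ± 0.14, adjusted p = 0.00107) and JUNB, a part of AP-1, fell by 1.30, while KLF4, a driver of terminal differentiation, rose from 18.2 and 27.5 CPM to 51.8 and 70.0 CPM (1.39 ± 0.30, adjusted p = 0.0165). In FaDu ErlR 0 of the 24 were called by edgeR, and 1 was higher at an unadjusted p under 0.05.

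Keratins of the suprabasal and stressed epithelium, 14 genes, gave 5 falls among 9 tested in Cal27 AfaR and 4 of 9 in its ErlR counterpart, and in FaDu 3 of 10 with afatinib and 1 of 10 with erlotinib resistance. KRT13, the keratin of moist stratified epithelium, was at 104 and 164 CPM in FaDu parental cells and 1.50 and 20.5 CPM in FaDu AfaR cells (-3.60 ± 0.89, adjusted p = 0.0263). Basal layer genes, 12 in all, fell together with the differentiation genes in Cal27 AfaR, 11 of 12, and their summed level there was 1425 to 1700 CPM against 5391 to 6994 CPM in the parental libraries; in Cal27 ErlR 3 fell and 1 rose, and in FaDu AfaR 1 rose. So in Cal27 AfaR the levels of basal and of suprabasal genes were both lower, and their ratio was not tested.

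Position was looked at last. Of the 15 genes at 1q21, 7 were tested in Cal27, and in Cal27 AfaR 5 of them fell and 2 rose, while 5 of the 44 other genes tested in the same stretch fell and 3 rose. In Cal27 ErlR 3 fell and 1 rose, beside 4 and 0 of the 44 others. In FaDu 5 of the 15 were tested, with median changes of 0.52 in AfaR and -0.03 in ErlR cells. In the kallikrein cluster 4 of 5 genes tested fell in Cal27 AfaR and 2 of 5 in Cal27 ErlR, 3 of 6 fell in FaDu AfaR and 0 of 6 were called in FaDu ErlR by edgeR. Of the other genes of the cluster 1 of 1 tested fell in Cal27 AfaR, and 0 of 3 were called in FaDu AfaR. The median change of these 3 in FaDu AfaR was -1.61, beside -1.89 for the 6 kallikrein genes of the set. The shares of all genes given above for each model apply to these stretches too. Rises and falls thus both occurred within the 1q21 stretch in both Cal27 models: in Cal27 AfaR FLG and ECM1 rose, while S100A7, S100A8, S100A9, S100A2 and SPRR1B fell.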

How the data were processed

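RNA was measured by poly(A) RNA-seq in 12 libraries (FaDu and Cal27; parental, AfaR and ErlR; 2 each). Per the submitters' processing notes, the authors used Trimmomatic 0.36, STAR 2.5.2b and featureCounts of Subread 1.5.2 with GRCh38 and deposited raw counts per gene and library; normalized tables also deposited were not used. Strand and multi-mapping settings are not given in the sources used here. Counts were tested with edgeR 4.0.16 (R 4.3.3; TMM, filterByExpr, quasi-likelihood, Benjamini-Hochberg): 1 fit per line (6 libraries, 3 residual degrees of freedom) within lines, and 1 fit of all 12 libraries (6 residual degrees of freedom) between lines. The common biological coefficient of variation was 14.5 to 15.3%. Floors and 95% counting intervals (exact conditional) cover counting error only. The genes and lists were chosen with earlier results of these data known.

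Full values are given for up to 6 called genes per direction and comparison with the largest change and at least 1 CPM in the higher group, plus genes named by role; of other lists, up to 4 called genes per direction. Alternatives were DESeq2 1.42.0, 3 other scalings, 2 other filters, other sets of libraries, other limits, a replicate block and leaving out each library. The code was tested on simulated data. Replicates of a group differed beyond counting noise (chi-square per degree of freedom 12.7 to 26.7), so none was a recount of the same library. Repeat preparations of 1 RNA could also differ by more than counting noise, so biological replication was not tested by this. The result for 1 regulator is not reported here.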

Additional observations from a re-analysis of the deposited data

Results flagged for a closer look

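Genes are listed here because the change under resistance differed between FaDu and Cal27 in the interaction test over all 12 libraries (edgeR, adjusted p under 0.05 and a difference above 1 on the log2 scale); a positive value means a higher effect in FaDu. For afatinib the differences were 9.28 ± 2.39 for RHCG, 7.58 ± 1.92 for S100A8, 6.59 ± 0.72 for S100A9, 5.47 ± 0.74 for KLK8, 5.33 ± 1.61 for LY6D, 4.52 ± 0.32 for CSTA, 3.83 ± 0.73 for CALML3, 3.39 ± 1.01 for KLK7, 2.26 ± 0.66 for CEACAM6, 1.61 ± 0.36 for KLK5, 1.15 ± 0.27 for CSTB and 1.01 ± 0.19 for EVPL. They were -6.99 ± 1.51 for FLG, -1.86 ± 0.59 for ECM1 and -1.42 ± 0.43 for KLK6. For erlotinib they were 5.58 ± 1.74 for S100A8, 4.05 ± 0.77 for S100A9, 2.34 ± 0.46 for SCEL and 1.44 ± 0.43 for LYPD3.

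S100A9, KLK8, CSTA, KLK5 and FLG kept their afatinib difference past both limits with any 1 of the 8 libraries left out, and S100A9 and SCEL their erlotinib difference. The others did not: the afatinib difference of S100A8 was 2.75 (adjusted p = 0.975) and that of CALML3 2.69 (adjusted p = 0.13) without FaDu AfaR replicate 2, that of CSTB 0.76 without Cal27 parental replicate 2, and those of ECM1, KLK6 and KLK7 were lost in 7 of 8 such fits, LY6D and CEACAM6 in 6, and RHCG and EVPL in 4. RHCG, S100A8, LY6D and FLG were near or at 0 counts in one of the groups, so the size of their difference is not bounded by the data. S100A9 and KLK8 were low in FaDu parental cells (2.05 and 0.850 CPM on average) and had less room to fall there. The part of these low levels in the differences was not tested. Without 1 library the S100A9 difference ranged from 5.54 to 7.21 for afatinib and from 2.98 to 4.65 for erlotinib. The afatinib difference of KLK8 also moved by over 1.5 times. For erlotinib S100A8 was lost in 6 and LYPD3 in 4 of 8 fits.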

How the results depend on the processing

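Over 107 calls of single genes in the 9 comparisons, 1329 values were recomputed under other settings: 1185 stayed past both limits in the same direction, 144 kept direction or fell to 0 without passing, and 0 reversed. Leaving out 1 library accounted for 121 of the 144. The counts of called genes that moved by more than 1.5 times were these. For FaDu AfaR, higher genes were 3 with no limit on the fold change and 0 to 1 without 1 library, and lower genes 3 to 5 without 1 library. For FaDu ErlR, higher genes were 7 with ERCC scaling, 3 with no filter, 0 with at least 10 counts in every library, 2 with all 12 libraries, 3 with unadjusted p, 2 with no fold limit and 0 to 4 without 1 library; lower genes were 2 with DESeq2, 2 with ERCC scaling, 3 with no filter, 2 with only the 4 libraries compared, 1 with all 12 libraries, 1 with the replicate block and 3 with unadjusted p. Requiring 10 counts in every library left 1 higher and 10 lower in Cal27 AfaR, 4 lower in Cal27 ErlR, 1 higher and 8 lower in Cal27 AfaR against ErlR, 2 higher and 4 lower between the parental lines, and 5 higher for the afatinib and 2 higher for the erlotinib interaction; this filter removes genes that fell to 0. In Cal27 ErlR, 4 were higher with no filter and 4 with no fold limit. In FaDu AfaR against ErlR, higher genes were 1 with DESeq2, 2 with ERCC scaling, 3 with no filter, 2 with all 12 libraries, 1 with the replicate block, 3 with unadjusted p, 1 with no fold limit and 0 to 3 without 1 library. Without 1 library, lower genes were 10 to 17 in Cal27 AfaR against ErlR and 6 to 10 between the parental lines; for the afatinib interaction 5 to 11 were higher and 1 to 2 lower, and for the erlotinib interaction 2 to 5 were higher and 0 to 2 lower. The erlotinib interaction gave 9 higher with ERCC scaling and 7 with unadjusted p, and 3, 2 and 1 lower with no filter, unadjusted p and no fold limit.

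The replicate numbers did not pair the libraries: deviations of same-numbered libraries correlated at -0.173 to 0.169 (15 pairs of groups, median 0.0174). With the replicate number as a block, 19 genes fell in Cal27 AfaR, 11 in Cal27 ErlR and 7 in FaDu AfaR. Spike-in scaling moved the median of all genes by 0.182 in FaDu AfaR, 0.488 in FaDu ErlR and 0.58 between the parental lines.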
